A study of Mus musculus with 8 samples.

Results

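Genes of ribosome biogenesis and the nucleolus were followed in the mouse T cell line CTL-EN, whose cells expressed the beta common chain (beta-c) of the GM-CSF receptor either with a serine changed to glycine (Ser585Gly) or as the wild type. They were taken as a list of 54 gene symbols. Of these, 46 had a placed probe on the array, among 15096 genes with a probe of 1 symbol, and 3 of the 46 (Ubtf, Ncl and Ebna1bp2) had a second probe. Utp18, Wdr75, Noc4l, Rrp12, Tsr1, Dkc1, Npm3 and Gnl3 were not analysed here. Each gene was read on its brightest probe.

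The 4 RNA populations were Ser585Gly cells after 12 h with GM-CSF, Ser585Gly cells at 0 h, wild-type cells after 12 h with GM-CSF and wild-type cells at 0 h. All cells, of either genotype, had first been kept without factor for 12 h in RPMI with 0.5% CS, and the 12 h cells were then stimulated with 50 ng/mL of human GM-CSF. No population was held for 12 h without GM-CSF, so the cytokine and the time elapsed cannot be told apart, and the labels do not say how the lines were made or whether each was a single clone. Total RNA was compared on 8 two-colour oligonucleotide arrays, 2 arrays for each of 4 comparisons, with the dyes exchanged between replicate 1 (Ser585Gly or 12 h RNA in Cy5) and replicate 2 (the same RNA in Cy3). No label says that the RNAs came from separate cultures, so each exchange was read as a technical repeat and the p-values measure only the spread between hybridisations.

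Ribosomes are built in the nucleolus, where RNA polymerase I transcribes the precursor of the large ribosomal RNAs. Box C/D small nucleolar ribonucleoproteins (snoRNPs) guide 2′-O-methylation of that precursor, box H/ACA snoRNPs guide pseudouridylation, and a large set of assembly factors cleaves and folds it into the small and large subunits. Growth factors and cytokines raise this programme in many cell types, and the nucleolus enlarges when resting lymphocytes are activated. On the arrays each ratio is relative to the other RNA on the same slide after centring, so a change in total RNA per cell would not be seen, and a changed share of cells cannot be told apart from changed RNA per cell.

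Gene names rest on a print order with 24 pins that was recovered from the spots, since the deposited names follow a 48-pin order. In the recovered order 244 empty wells lay at a median brightness percentile of 1.34, against 47.5 in the deposited order, and 144 Gapdh probes lay at 97.6 against 88.6. Among 905 genes with a pair of probes, the log2 values of the 2 probes correlated across genes with r = 0.293 to 0.363 in the recovered order in the 4 comparisons, and with r = -0.0964 to 0.0562 in the deposited order (genes are not independent replicates). For the difference between the time responses r was 0.162 in the recovered order and 0.0591 in the deposited order. Defining T cell genes were bright: 14 of 16 listed markers were measured, with a median percentile of 88.2, Cd3e at 98.2, Cd8a at 83.5 and Cd4 at 1.21. Myeloid, B cell, erythroid, mast cell and fibroblast lists had medians of 30.4 to 46.1, and among them Cma1 (92.0) and Fn1 (96.2) were the brightest. Probes of all these lists were also brighter than 95% of empty wells, so exceeding an empty well does not show that a gene is expressed.

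The ribosome biogenesis genes were among the brighter probes of the array. Their median brightness percentile was 87.0, with fibrillarin (Fbl) highest at 99.8, and 45 of 46 exceeded 95% of the empty wells. The exception was Gnl2 (0.546), a GTPase of large-subunit assembly, and the next dimmest were Rrn3 (17.9) and Nop10 (30.6). Fbl was also the only member with a foreground above 50000 units, near the top of the scanner range, on 1 array in each dye.

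After 12 h with GM-CSF about as many ribosome biogenesis genes rose as did not pass the test, in cells of either genotype, and none of the measured genes passed for a fall. In Ser585Gly cells 26 of 46 genes rose and in wild-type cells 22 of 46 (limma fit over 8 arrays, Benjamini-Hochberg adjusted p under 0.05 over 21795 probes). Of all probes 5.86% were called higher and 4.63% lower in Ser585Gly (10.5% in all), and 5.60% higher and 4.01% lower in wild type (9.61% in all). Among probes brighter than the median, where 43 of the 46 members lie, 9.47% were called higher in Ser585Gly and 8.56% in wild type. The median log2 change of the members was 0.54 in Ser585Gly (range -0.42 to 1.58) and 0.42 in wild type (range -0.24 to 0.94), while the medians of all probes were 0.01 and -0.01. Both arrays of the comparison lay above 0 for 40 of 46 genes in Ser585Gly and 35 of 46 in wild type, against 31.8% and 32.6% of all probes. The call was shared by 19 genes, which are 19 of the 26 in Ser585Gly and 19 of the 22 in wild type. In the fit over 8 arrays each time change also draws on the other comparisons, so the lists of the genotypes are not independent. With each change taken from its own 2 arrays, 8 genes were shared, 11 passed in Ser585Gly alone and 0 in wild type alone. The share of all probes called in both genotypes is not given here. A call in 1 genotype alone is no measure of a difference between genotypes, which is tested further on.

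Some marker genes were also called over time, where 10.5% of all probes were called in Ser585Gly and 9.61% in wild type. Of 14 T cell markers, Cd3e (-0.86 in Ser585Gly, -0.83 in wild type) and Cd3g (-0.67 and -0.69) fell and Lat (0.50 and 0.49) rose in each genotype, with list medians of 0.00 and -0.09. Of 5 erythroid markers Gata1 rose (0.65 and 0.58) and Hba-a1 fell (-0.49 and -0.45), and of 8 fibroblast markers Fn1 fell (-0.43 and -0.47). Of 12 myeloid markers Csf3r (0.57) rose in wild type and none passed in Ser585Gly, and no B cell or mast cell marker passed. Of 9 housekeeping entries, among which Hprt is repeated, none passed in Ser585Gly, where Gapdh had -0.20, and Gapdh fell in wild type (-0.49). The part of these genes in the rise of ribosome biogenesis genes was not tested.

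**Figure D1:**
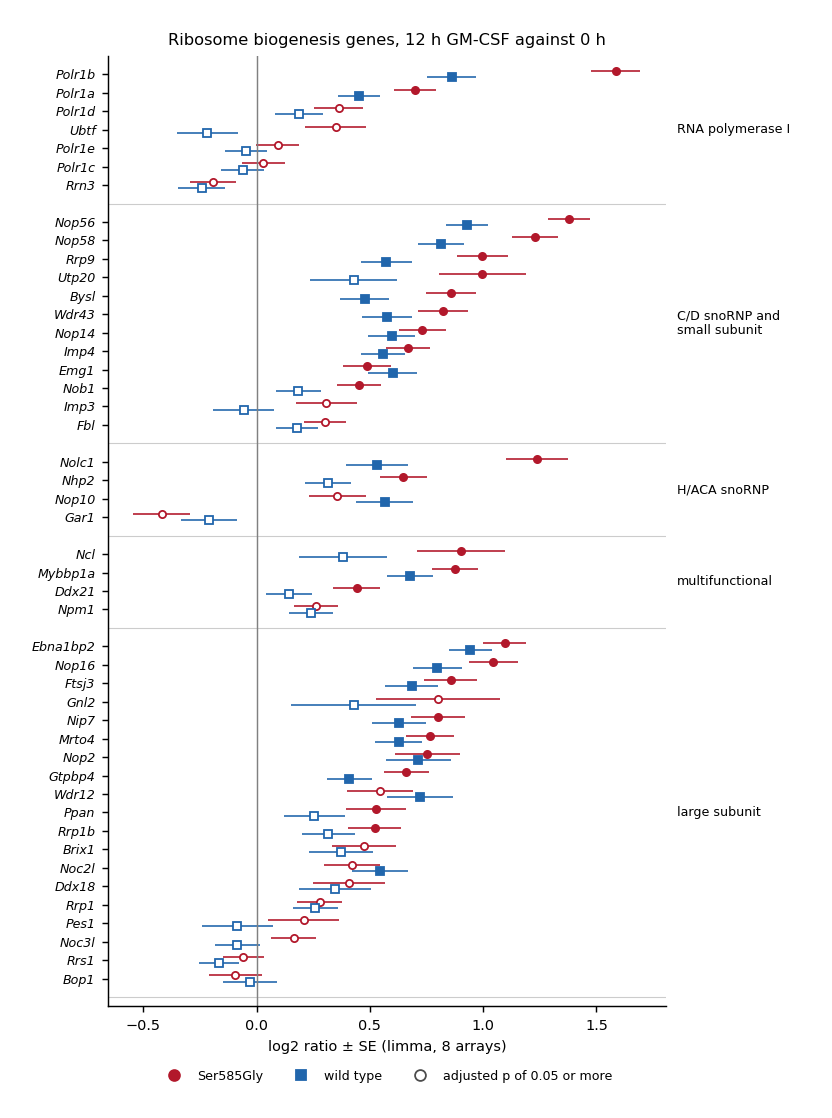
Log2 ratio of 12 h with GM-CSF over 0 h (horizontal axis, ± SE of the limma fit over 8 arrays) for the 46 measured genes, grouped by role, in Ser585Gly (circles) and wild type (squares). Filled symbols have an adjusted p under 0.05: 26 in Ser585Gly and 22 in wild type, all to the right of 0.

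These calls depended on how the dye exchange was treated. With the 2 arrays of each comparison averaged to 1 value, 22 genes rose in Ser585Gly, of which Gnl2 was not among the 26, and 10 in wild type. Those 10 were Ebna1bp2, Nop56, Polr1b, Nop58, Nop16, Wdr12, Nop2, Ftsj3, Mybbp1a and Mrto4, so no other rise given for wild type passed with array pairs averaged. Without replicate 1 or replicate 2 of the Ser585Gly time arrays the count there was 8 or 16. Without replicate 1 or replicate 2 of the wild-type time arrays the count in wild type was 5 or 3, and without replicate 1 of the Ser585Gly time arrays it was 13. Nop56, Nop58 and Ebna1bp2 passed in wild type under every setting tried. In Ser585Gly 8 genes did so, namely Polr1b, Nop56, Nop58, Rrp9, Nolc1, Mybbp1a, Ebna1bp2 and Nop16.

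RNA polymerase I is the enzyme that makes the ribosomal RNA precursor. Of its 7 listed subunits and initiation factors, all measured, 2 rose in Ser585Gly and the same 2 in wild type: Polr1b, the second-largest subunit, and Polr1a, the largest. Polr1b had the largest change of any member in Ser585Gly. Its log2 ratio was 1.48 on replicate 1 and 1.49 on replicate 2 in Ser585Gly, against 0.97 and 0.95 in wild type. The genotypes did not overlap, but the difference between the time responses did not pass (limma, adjusted p = 0.213). In normalised intensity, replicate 1 of the Ser585Gly time arrays read 1903 units at 12 h against 681 units at 0 h, and replicate 2 read 4622 against 1647 units. The wild-type time arrays read 5292 units at 12 h against 2699 units at 0 h on replicate 1, and 6885 against 3568 units on replicate 2. The fitted log2 change was 1.58 ± 0.11 (SE, adjusted p = 0.00024) in Ser585Gly and 0.86 ± 0.11 (adjusted p = 0.0027) in wild type.

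Polr1a changed less, by 0.70 ± 0.09 in Ser585Gly (adjusted p = 0.0032) and 0.45 ± 0.09 in wild type (adjusted p = 0.0200, limma). The other 5 genes did not pass in either genotype. They were the shared subunits Polr1c and Polr1d, the subunit Polr1e, the initiation factor Rrn3 (also called TIF-IA) and Ubtf, the upstream binding factor that coats active ribosomal DNA. Their log2 values ran from -0.19 (Rrn3) to 0.36 (Polr1d) in Ser585Gly and from -0.24 (Rrn3) to 0.19 (Polr1d) in wild type. The median of the 7 genes was 0.35 in Ser585Gly and -0.04 in wild type.

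**Figure D2:**
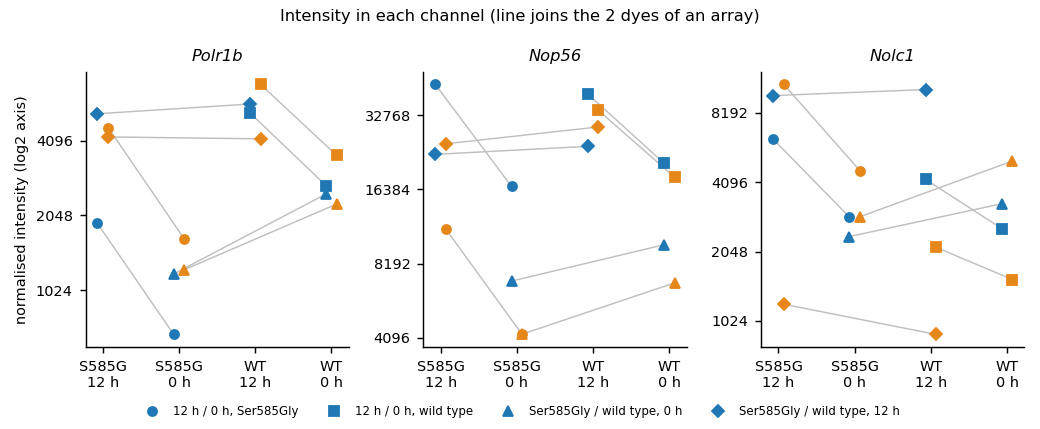
Normalised intensity (log2 axis, arbitrary units) of Polr1b, Nop56 and Nolc1 in each RNA population, with a grey line joining the 2 dyes of each array. Symbol shapes mark the comparison, blue replicate 1 and orange replicate 2; levels shift between arrays, while within each time array the 12 h channel lies above the 0 h channel for all 3 genes.

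The box C/D snoRNP and small-subunit group had the largest share of rising genes. Of 12 measured genes (17 listed), 10 rose in Ser585Gly with a median log2 change of 0.78, and 8 rose in wild type with a median of 0.56. Nop56 and Nop58 are the paired core proteins of the box C/D snoRNP that hold the methyltransferase fibrillarin on the guide RNA. Nop56 had log2 ratios of 1.37 and 1.42 on the 2 Ser585Gly arrays and 0.93 and 0.90 on the 2 wild-type arrays. All 4 values were positive. Those of the genotypes did not overlap, but the difference between the time responses did not pass (limma, adjusted p = 0.404). The fitted change was 1.38 ± 0.09 in Ser585Gly (2.60-fold, adjusted p = 0.000228) and 0.93 ± 0.09 in wild type (1.90-fold, adjusted p = 0.000937).

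Nop58 read 1.26 and 1.19 in Ser585Gly and 0.89 and 0.75 in wild type, again without overlap. The difference between its time responses did not pass either (limma, adjusted p = 0.507). Its fitted change was 1.23 ± 0.10 (adjusted p = 0.000469) in Ser585Gly and 0.81 ± 0.10 (adjusted p = 0.00246) in wild type. Fibrillarin itself did not pass, at 0.30 (adjusted p = 0.0848) in Ser585Gly and 0.18 (adjusted p = 0.30) in wild type.

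Rrp9, the U3 snoRNA-binding protein of the small-subunit processome, read 1.16 and 1.03 on the Ser585Gly arrays and 0.68 and 0.26 on the wild-type arrays. Its fitted change was 0.996 ± 0.11 in Ser585Gly (adjusted p = 0.00183) and 0.57 ± 0.11 in wild type (adjusted p = 0.0173). Utp20, a large scaffold of the processome, read 0.94 and 0.89 in Ser585Gly and 0.58 and 0.44 in wild type. It passed only in Ser585Gly (0.996 ± 0.19, adjusted p = 0.0144), where its standard error was the largest among the called genes of this group, and had 0.43 ± 0.19 (adjusted p = 0.219) in wild type.

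Bysl, a small-subunit assembly factor known as bystin, changed by 0.86 in Ser585Gly and 0.48 in wild type. The processome proteins Wdr43 (0.82 and 0.57), Nop14 (0.73 and 0.60), Imp4 (0.67 and 0.56) and the methyltransferase Emg1 (0.49 and 0.60) also rose in Ser585Gly and in wild type, with the Ser585Gly value given first for each. Nob1, the endonuclease that makes the 3′ end of 18S rRNA, rose in Ser585Gly (0.45, adjusted p = 0.0228) and had 0.18 (adjusted p = 0.301) in wild type. Emg1 and Nob1 in Ser585Gly no longer passed with array pairs averaged. Imp3, which binds beside Imp4 on the U3 snoRNP, passed in neither genotype, at 0.31 in Ser585Gly and -0.06 in wild type.

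The box H/ACA group was mixed. Nolc1 (Nopp140), a chaperone that binds both classes of snoRNP and shuttles between the nucleolus and the cytoplasm, read 1.12 and 1.25 on the Ser585Gly arrays and 0.71 and 0.46 on the wild-type arrays. The fitted change was 1.24 ± 0.14 in Ser585Gly (adjusted p = 0.00169) and 0.53 ± 0.14 in wild type (adjusted p = 0.0471). Nhp2, a core protein, rose in Ser585Gly (0.65, adjusted p = 0.00672) and had 0.32 (adjusted p = 0.10) in wild type. Nop10, also a core protein, passed in wild type at 0.57 (adjusted p = 0.0276), but its 2 arrays read 1.04 and 0.26 and its probe was dim; in Ser585Gly it had 0.36 (adjusted p = 0.122). Gar1, the remaining measured core protein, had the lowest value of all members in Ser585Gly, -0.42 (adjusted p = 0.0705), with -0.21 in wild type (adjusted p = 0.363).

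Abundant multifunctional proteins of the nucleolus made up 4 measured genes, of which 3 rose in Ser585Gly and 1 in wild type. Mybbp1a, a Myb-binding nucleolar protein, changed by 0.88 in Ser585Gly and 0.68 in wild type and passed in each. Nucleolin (Ncl), which packs and opens ribosomal chromatin, rose by 0.90 ± 0.19 in Ser585Gly (adjusted p = 0.0221) and had 0.38 ± 0.19 in wild type (adjusted p = 0.279). A second, dimmer nucleolin probe at brightness percentile 49.3 read 0.17 in Ser585Gly (adjusted p = 0.483) and -0.20 in wild type, so the probes disagreed. The RNA helicase Ddx21 rose in Ser585Gly (0.44, adjusted p = 0.0301), without passing when array pairs were averaged (adjusted p = 0.0895), and had 0.14 in wild type. Nucleophosmin (Npm1), a histone chaperone of the granular component, passed in neither genotype (0.26 in Ser585Gly, 0.24 in wild type).

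Large-subunit assembly factors formed the largest group, with 19 of 20 listed genes measured and 9 called in each genotype. The group's median log2 change was 0.53 in Ser585Gly and 0.41 in wild type. Ebna1bp2 (EBP2), an early factor of the large subunit, had the largest change of all members in wild type. Its brighter probe read 1.06 and 1.15 on the Ser585Gly arrays and 0.88 and 0.99 on the wild-type arrays, with fitted changes of 1.10 ± 0.09 (adjusted p = 0.000561) and 0.94 ± 0.09 (adjusted p = 0.000967). A dimmer Ebna1bp2 probe at percentile 54.9 read 0.28 in Ser585Gly (adjusted p = 0.447) and 0.10 in wild type (adjusted p = 0.81), so this gene's change was seen on 1 of its 2 probes.

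Nop16, a factor of pre-60S particles, read 1.11 and 0.95 in Ser585Gly and 0.92 and 0.70 in wild type. Its fitted change was 1.04 ± 0.11 in Ser585Gly (adjusted p = 0.00126) and 0.80 ± 0.11 in wild type (adjusted p = 0.00369). Ftsj3, the methyltransferase related to yeast Spb1, read 1.18 and 0.51 in Ser585Gly and 0.67 and 0.72 in wild type, and rose by 0.86 and 0.68. Nop2, an rRNA cytosine methyltransferase also known as the proliferation antigen p120, read 1.17 and 0.25 in Ser585Gly and 0.73 and 0.79 in wild type, with fitted changes of 0.75 ± 0.14 and 0.71 ± 0.14. The genotypes overlapped for Ftsj3 and for Nop2, and the replicates of Ser585Gly stood far apart for each.

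Nip7 (0.80 in Ser585Gly, 0.63 in wild type), the P0-like protein Mrto4 (0.77 and 0.63) and the GTPase Gtpbp4 (0.66 and 0.41), all taking part in maturation of the large subunit, rose in each genotype. Ppan (0.53) and Rrp1b (0.52) rose in Ser585Gly, and neither passed there with array pairs averaged (adjusted p = 0.0608 for Ppan and 0.081 for Rrp1b). Noc2l, a nucleolar partner of pre-60S particles, rose in wild type (0.55, adjusted p = 0.0289) and had 0.42 (adjusted p = 0.0675) in Ser585Gly.

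The PeBoW complex, which joins Pes1, Bop1 and Wdr12 and is needed for maturation of the large-subunit RNAs, did not move as a unit. Wdr12 read 0.69 and 0.51 in Ser585Gly and 0.50 and 0.84 in wild type, and passed in wild type (0.72 ± 0.15, adjusted p = 0.0195) but not in Ser585Gly (0.55 ± 0.15, adjusted p = 0.0512). Pes1 had 0.21 in Ser585Gly and -0.08 in wild type, and Bop1 had -0.09 and -0.03. The other members of the group that passed in neither genotype were Brix1, Ddx18, Rrp1, Noc3l, Rrs1 and the dim Gnl2, with log2 values from -0.06 (Rrs1) to 0.80 (Gnl2) in Ser585Gly and from -0.17 (Rrs1) to 0.43 (Gnl2) in wild type.

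**Figure D3:**
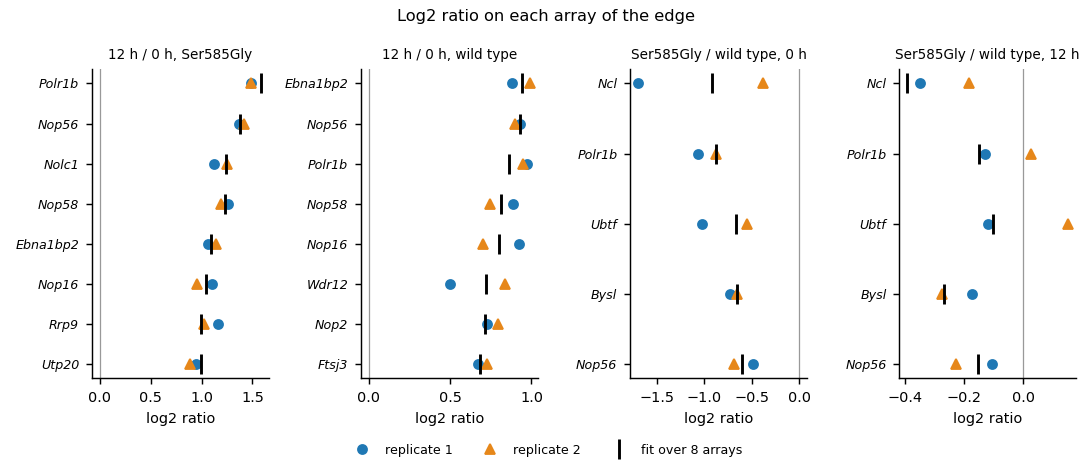
Log2 ratio on each of the 2 arrays of a comparison (circles, replicate 1; triangles, replicate 2) and the fit over 8 arrays (bars) for the 8 largest changes called in each time comparison and the 5 called at 0 h, which are shown again at 12 h. Horizontal axes differ between panels; single arrays of those 5 genes lie from -1.70 to -0.38 at 0 h and from -0.35 to 0.15 at 12 h.

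Ser585Gly cells were lower than wild-type cells for part of the module at 0 h, after factor deprivation. Of 46 genes, 10 were lower and none was higher, with a median log2 ratio of -0.34 (range -0.91 to 0.35) against -0.00 over all probes. Of all probes 2.02% were called lower and 1.99% higher (4.01% in all). The 10 genes were Ncl, Polr1b, Ubtf, Bysl, Nop56, Rrp9 (-0.59), Nop58 (-0.50), Ddx21 (-0.49), Ebna1bp2 (-0.49) and Nhp2 (-0.48). By role they were 2 of 7 polymerase I genes, 4 of 12 box C/D and small-subunit genes, 1 of 4 box H/ACA genes, 2 of 4 multifunctional genes and 1 of 19 large-subunit genes. Both arrays lay below 0 for 32 of 46 genes, against 23.5% of all probes.

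Nucleolin read -1.70 and -0.38 on the 2 arrays, which stood far apart, and its fitted log2 ratio was -0.91 ± 0.19 (adjusted p = 0.0408). Its dimmer probe read lower as well (-0.84, adjusted p = 0.0117). Polr1b read -1.07 and -0.88. In normalised intensity it had 1192.5 units in Ser585Gly against 2500 units in wild type on replicate 1, and 1241 against 2279 units on replicate 2. The fitted ratio was -0.87 ± 0.11 (adjusted p = 0.00658).

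Ubtf read -1.03 and -0.55 (fit -0.67 ± 0.14, adjusted p = 0.0358), and its second probe, at percentile 59.6, had -0.51 (adjusted p = 0.0681). The dimmer Ebna1bp2 probe had -0.21 (adjusted p = 0.543, arrays at 0.31 and -0.38), and with the mean over its probes Ebna1bp2 was not called. Bysl read -0.73 and -0.66 (fit -0.65 ± 0.11, adjusted p = 0.019). Nop56 read -0.49 and -0.69 (fit -0.60 ± 0.09, adjusted p = 0.0136). Utp20 had a fitted ratio of -0.80 without passing (adjusted p = 0.0575), from arrays at -0.25 and -1.51, and Nolc1 had -0.58 (adjusted p = 0.0556). Gar1 was the highest member, at 0.35 (adjusted p = 0.147).

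The 0 h calls did not hold when the dye exchange was treated as 1 observation. With array pairs averaged none of the 10 genes passed, their adjusted p then running from 0.0635 to 0.118, and across all probes 136 were called in place of 875. Leaving out replicate 1 or replicate 2 of the 0 h arrays left 4 or 0 genes, and leaving out any of the other 6 arrays left 1 to 7. Across all probes the 2 dye orientations at 0 h correlated at only r = 0.125, against 0.51 to 0.515 for the time comparisons. Among markers of other cell types only the myeloid list had calls at 0 h, where 4.01% of all probes were called. Of its 12 measured genes 2, Fcgr3 (0.87) and Cd68 (0.51), were higher in Ser585Gly, and none was lower. The other 10 ran from -0.49 (Tyrobp) to 0.25 (Mpo), Elane and Lyz2 among them at -0.45 and -0.34, and the median log2 ratio of the list was 0.09. Fcgr3 (0.85) and Cd68 (0.60) were also called higher in Ser585Gly at 12 h, where 1.73% of all probes were called. The part of these genes in the result was not tested.

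At 12 h no measured gene differed between Ser585Gly and wild type by limma's test, where 0.913% of all probes were called higher and 0.817% lower (1.73% in all). At an unadjusted p under 0.05, 5 genes (10.9%) were lower and 1 (2.17%) was higher in Ser585Gly, against 6.42% and 6.69% of all probes. The deposited log2 ratios gave 6 calls (13.0%), against 10.2% of all probes. The median log2 ratio was -0.12 (range -0.43 to 0.47), with 24 of 46 genes below 0 on both arrays and 8 above, against 26.3% and 26.5% of all probes. The largest values were those of Imp3 (0.37 and 0.35 on the 2 arrays, fit 0.47, adjusted p = 0.166) and the helicase Ddx18 (-0.85 and -0.17, fit -0.43, adjusted p = 0.296). Nucleolin read -0.35 and -0.18 (fit -0.39), Wdr12 -0.84 and 0.01 (fit -0.36), and the dim Gnl2 0.90 and -1.77 (fit -0.35). Only for Imp3 and nucleolin among these did the 2 arrays read close together.

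The 10 genes called lower at 0 h had fitted ratios of -0.39 (nucleolin) to -0.09 (Nop58) at 12 h, and Ebna1bp2 had -0.34. They were picked by their 0 h values, so setting the 2 times side by side is no test of a change, which the interaction gives. Polr1b read -0.13 and 0.03, with 5249 units in Ser585Gly against 5743 units in wild type on replicate 1 and 4237 against 4161 units on replicate 2. Nop56 read -0.11 and -0.23, Ubtf -0.12 and 0.15, and Bysl -0.17 and -0.28. The fitted ratios of Polr1b and Nop56 at 12 h were each -0.15 (adjusted p = 0.63 and 0.551).

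**Figure D4:**
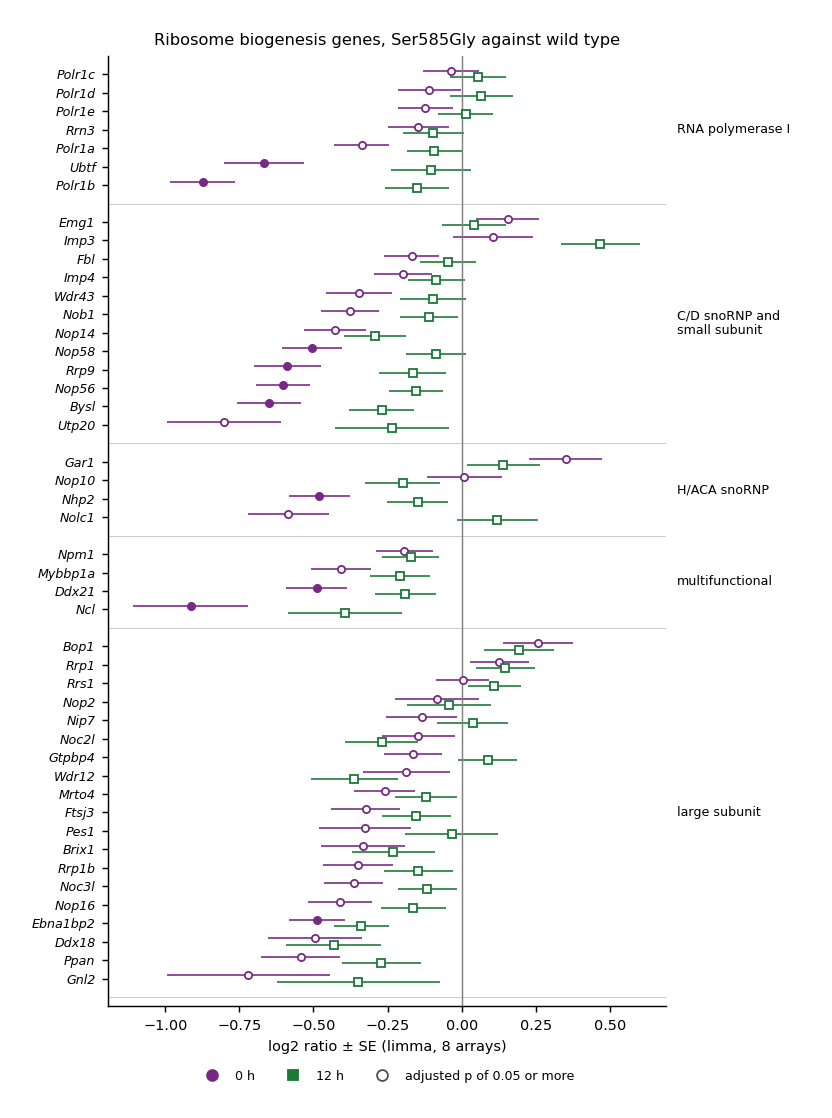
Log2 ratio of Ser585Gly over wild type (horizontal axis, ± SE of the limma fit over 8 arrays) for the 46 measured genes, grouped by role, at 0 h (circles) and 12 h (squares). Filled symbols have an adjusted p under 0.05: 10 genes at 0 h, all to the left of 0, and none at 12 h.

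Whether the response to 12 h of GM-CSF differed between genotypes was tested by the interaction term, the log2 change in Ser585Gly minus that in wild type. None of the 46 genes passed, and 0.0551% of all probes did (0.0275% in each direction). At an unadjusted p under 0.05, 14 genes (30.4%) had a positive difference and none a negative one, against 3.8% and 3.22% of all probes. The median difference was 0.19 (range -0.21 to 0.72), with 40 of 46 genes above 0, against 0.01 over all probes. The largest were Polr1b (0.72 ± 0.13, adjusted p = 0.213), Nolc1 (0.70 ± 0.16, adjusted p = 0.402), Utp20 (0.57), Ubtf (0.57) and nucleolin (0.52). This term, the change within Ser585Gly and the 0 h comparison all use the same Ser585Gly 0 h RNA, so they are not separate evidence.

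**Figure D5:**
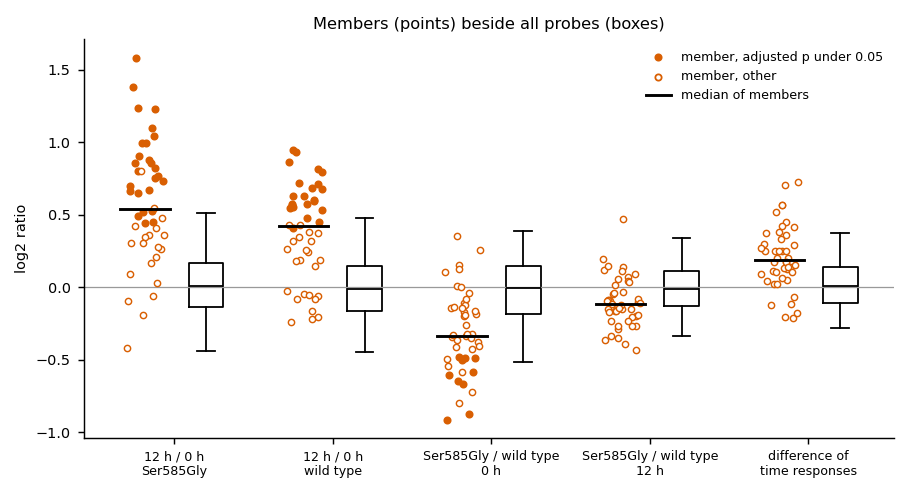
Log2 ratio (vertical axis) of the 46 measured genes (points, filled where the adjusted p was under 0.05, with their median as a black line) in the 5 comparisons of the fit. Each box holds the middle of all 21795 probes from percentile 25 to 75, with whiskers from percentile 5 to 95; the gene medians lie at 0.54, 0.42, -0.34, -0.12 and 0.19 and the probe medians near 0.

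Promoter sequences were available from RefSeq (GRCm38.p6), as windows of 250 bases before and 50 bases after the gene start, for 41 of the 46 measured genes. The letters CACGTG, the E-box core read by Myc and related factors and identical on either strand, were searched because many ribosome biogenesis genes are known Myc targets. They occurred in 7 of 41 genes (17.1%), against 2187 of 27025 genes with a window (8.09%). The share was 5 of 29 (17.2%) among genes that rose in either genotype and 2 of 12 (16.7%) among those that rose in neither. Within the 250 upstream bases alone the share was 3 of 41 (7.32%), against 6.86% of all genes. These were Imp4 and Nop2, which rose in each genotype, and Rrn3, which holds 2 copies and rose in neither. The first 2 sequences below are the last 150 bases before the start of genes that rose in each genotype and hold the letters (in capitals), and the third, with none, is that of Polr1b, which changed most in Ser585Gly.
Imp4, chr1:34439679-34439828, + strand: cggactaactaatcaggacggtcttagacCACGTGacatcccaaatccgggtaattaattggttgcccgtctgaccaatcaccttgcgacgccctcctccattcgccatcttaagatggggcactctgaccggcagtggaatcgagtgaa
Nop2, chr6:125131733-125131882, + strand: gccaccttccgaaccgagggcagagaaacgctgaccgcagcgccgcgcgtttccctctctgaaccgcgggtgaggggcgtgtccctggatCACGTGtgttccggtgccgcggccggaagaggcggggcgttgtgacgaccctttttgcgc
Polr1b, chr2:129100846-129100995, + strand: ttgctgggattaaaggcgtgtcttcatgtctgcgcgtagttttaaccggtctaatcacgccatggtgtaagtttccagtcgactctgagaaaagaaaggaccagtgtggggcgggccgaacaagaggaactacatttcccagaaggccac

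Further genes of the pathway, outside the 54, were read from a wider list of 119 symbols, of which 88 had a probe. Of these, 33 rose and 2 fell in Ser585Gly (median log2 change 0.32), and 20 rose and 1 fell in wild type (median 0.22). With array pairs averaged the calls in either direction numbered 18 in Ser585Gly and 5 in wild type. The largest rises in Ser585Gly were Dis3 (1.25), the catalytic nuclease of the RNA exosome, Pno1 (1.19), a partner of Nob1, the processome protein Utp4 (1.18) and Pak1ip1 (0.94), a large-subunit factor. In wild type they were Pak1ip1 (1.01), Dis3 (0.93), Surf6 (0.77), a nucleolar matrix protein, and Utp4 (0.73). Of all probes 10.5% were called in Ser585Gly and 9.61% in wild type. At 0 h, 8 of the 88 were lower in Ser585Gly and none was higher (median -0.13), beside 2.02% of all probes called lower. At 12 h Surf6 alone was lower (-0.92), beside 0.817%. With array pairs averaged no gene of the wider list was called at 0 h or at 12 h, and with 1 array left out 0 to 7 were called at 0 h and 0 to 2 at 12 h.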

How the data were processed

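The authors deposited, per the file headers, a foreground and a local background intensity for each dye of 23040 spots on each of 8 arrays, and a value table of log2 ratios. The log2 ratios of that table were deposited as Cy5 over Cy3 on every array, and per the submitters' processing notes limma was used. The scanner, the image software and the normalisation were not given in the sources used here. In Cy5 and Cy3 the median foreground was 631 to 946 and 795 to 1105 units, at 39.2 to 330 and 6.38 to 16.0 times the local background. The number of arrays limits the precision.

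From the intensities, background was corrected with normexp (offset 50) and each array normalised by loess (span 0.3, control spots at weight 0). Probes were placed on spots by the numbers in their names, 16 of them by their deposited ratios instead, and then moved to the recovered print order. In all 21795 probes were placed, and 90.3% lay nearest by values to their spot in the deposited order. Of 1012 coded controls 94.1% lay nearest by values to their own spot. Of the probes 16649 carried 1 gene symbol, 137 several and 5009 none. A linear model with mutation, time, their interaction and dye was fitted to all 8 arrays in limma 3.58.1 under R 4.3.3. It was run on simulated data with independent noise on each array, which cannot test the effect of RNA shared by a dye exchange. Standard errors have 4 residual degrees of freedom, with 4.34 added by the moderated variance. The Benjamini-Hochberg adjustment ran over all placed probes. All intensity values printed are after background correction and normalisation.

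The genes, the wider list and the marker lists were chosen with earlier results of these data known. Values are given for every gene that passed a comparison, with single arrays for the 8 largest changes over time and the 5 largest between genotypes at each time, and from the wider list for the 4 largest rises. Alternatives were other background and normalisation methods, the deposited ratios, array pairs averaged or as a random block, no dye term, a trended prior, the dimmest 25% of probes left out, the mean over a gene's probes, each comparison from its own 2 arrays, and each array left out.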

Additional observations from a re-analysis of the deposited data

How the results depend on the processing

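No called member and no member median over time or at 0 h changed sign under the alternatives run, and the median log2 change of the members ran from 0.497 to 0.626 in Ser585Gly over time, from 0.359 to 0.430 in wild type over time and from -0.367 to -0.248 between genotypes at 0 h. Counts of calls moved much more. Members called over time in Ser585Gly numbered 26, and 8 to 31 with 1 array left out. In wild type they numbered 22, with 10 when dye-swap pairs were averaged, 8 from the comparison's own 2 arrays and 3 to 23 with 1 array left out. At 0 h the 10 lower members became 25 with the pair as a random block, 21 from the deposited log2 ratios, 18 with print-tip loess, 16 without the dimmest probes or with a trended prior, 5 with median centring or no dye term, 1 from the comparison's own arrays, 0 with pairs averaged and 0 to 7 with 1 array left out. The random block was fitted to Cy5 over Cy3 ratios, where the RNA difference has opposite signs on the 2 arrays of a pair. Its correlation (0.327) is thus that of a shift shared by both dye orientations, and makes no allowance for RNA shared by a pair. At 12 h, where none was called, the random block and print-tip loess each called 1, the deposited ratios 6 and leaving out an array 0. The interaction gave 1 member with print-tip loess. Wider-list calls over time in Ser585Gly (35) were 18 with pairs averaged, 20 from own arrays, 53 with print-tip loess, 54 from the deposited ratios and 3 to 45 with 1 array left out. In wild type (21) they were 5, 4, 39 and 40 in the same order, 41 with the random block and 1 to 34 with 1 array left out. At 0 h (8) they were 0, 1, 23 and 26 in that order, 25 with the random block, 14 without dim probes, 15 with the trended prior, 13 with plain subtraction, 3 without the dye term and 0 to 7 with 1 array left out. At 12 h (1) they were 7 with the random block, 0 with pairs averaged, 5 with print-tip loess, 20 from the deposited ratios, 2 with the trended prior and 0 to 2 with 1 array left out. All-probe calls, given for pairs averaged, own arrays, random block, print-tip loess, deposited ratios and the range with 1 array left out, were 1097, 1147, 4306, 4267, 4256 and 284 to 3455 over time in Ser585Gly (2287 in the fit reported), and 862, 888, 4219, 4082, 4196 and 416 to 3327 in wild type (2094). Between genotypes they were 136, 225, 3421, 2053, 2560 and 106 to 638 at 0 h (875), where median centring gave 544 and no dye term 506, and 113, 154, 1131, 998, 2211 and 68 to 627 at 12 h (377). For the interaction (12) they were 0, 0, 34, 49, 88 and 0 to 6, with 20 under no background correction or plain subtraction, 6 without the dye term and 21 with the trended prior. The share of all-probe calls that were higher, 52.8% at 12 h, was 45.6% and 46.5% without either 12 h array, and at 0 h, 49.6%, it was 40.6% with median centring and 52.5% with print-tip loess. Averaging pairs leaves fewer observations. Own-array fits take each comparison's change from its own 2 arrays, but the spread and the dye effect from all 8 arrays. For the other settings the cause was not tested. No paired analysis was possible because replicate numbers mark dye orientation and pair no samples across comparisons. Signal over background was lowest in Cy3, and Gnl2 was too dim to read.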

Other observations

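RNA-degrading enzymes that trim and clear ribosomal precursors were read as 1 part of the wider list, with 17 of 23 symbols measured. In Ser585Gly cells 7 rose and 1 fell after 12 h with GM-CSF, and in wild-type cells 5 rose and 1 fell. Of all probes 5.86% were called higher and 4.63% lower in Ser585Gly, and 5.60% higher and 4.01% lower in wild type. Besides Dis3, the exosome ring subunit Exosc4 (0.41 in Ser585Gly, 0.55 in wild type), the exosome partner Mphosph6 (0.52 and 0.45) and Rpp14 (0.56 and 0.57), a subunit of RNase P, rose in each genotype. Exosc1, Exosc6 and the RNase MRP subunit Pop5 passed in Ser585Gly (0.63, 0.60 and 0.66), and Exosc3 passed in wild type (0.72). Xrn2, the nuclear 5′-to-3′ exonuclease, was the 1 gene that fell in each, at -0.52 (adjusted p = 0.0231) in Ser585Gly and -0.55 (adjusted p = 0.0206) in wild type. None of the 17 differed between Ser585Gly and wild type at 0 h by limma's test, where only 4.01% of all probes were called. The median log2 ratio of the 17 at 0 h was -0.01, against -0.34 for the 46 members. These genes were named after their values were seen, except Dis3.

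The polymerase I genes of the wider list held 5 initiation and termination factors and 5 shared polymerase subunits among the 10 measured. Of these the shared subunit Polr2l rose (0.59) and the initiation factor Taf1b fell (-0.35) in Ser585Gly, and none passed in wild type, with medians of 0.06 and -0.00, while 10.5% and 9.61% of all probes were called. In the same list 13 of 28 small-subunit genes and 12 of 33 large-subunit genes rose in Ser585Gly, against 7 of 28 and 8 of 33 in wild type. The recovered print order set the members' values: with names in the deposited order their median log2 change was 0.01 in Ser585Gly and 0.04 in wild type, against 0.53 and 0.42 over the same probes in the recovered order.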
